A study of Drosophila melanogaster with 2 samples.

Results

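Chromatin immunoprecipitation followed by sequencing located a GFP-tagged homeobrain protein on the Drosophila genome, and 645 of the 107925 entries that pair the peaks of both replicates lay in introns away from promoters. They were selected on the measured agreement of the replicates. Agreement was scored by the irreproducible discovery rate (IDR), the expected share of entries at a given rank or higher that do not hold between replicates. Each of the 645 had a score of 540 or more, which corresponds to an IDR of 0.05. Its summit lay on a chromosome arm, over 500 bp from every annotated transcript start, inside a protein-coding gene and outside every exon. On the arms, 5814 of 106659 ranked entries (5.45%) reached that score, of which 4390 lay at promoters, 495 in exons, 278 between genes and 6 in introns of noncoding genes. The score limit and the replicates' signals chose the 645, so these values are described below and not tested.

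The material was 2 biological replicates of 1 group, whole embryos 0 to 18 h old of the strain hbn-GFP, which expresses an hbn-eGFP fusion from an insertion. No untagged or untreated group was used, so the intronic entries are set against other entries of the same libraries and against intronic sequence as a whole. Whole embryos over this age range mix tissues and stages, so fewer cells that bind a site and less binding per cell cannot be told apart. The number of reads is not known from the peak files, and intervals below cover the counting of regions only.

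The product of hbn is a transcription factor with a homeodomain of the paired-like type, which recognises TAAT-type sequences, and it acts in the embryonic head and brain. Introns of fly genes, the first introns above all, are known to carry many enhancers. Several sequence families recur in such open regions: GAGAG, bound by the GAGA factor Trl and by Pipsqueak, CA repeats, and TATCGATA, the DNA replication-related element bound by DREF.

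The 6 strongest members are shown first, as plus-strand intronic sequence of up to 100 bp to each side of the summit, cut at an exon where one was nearer. Capitals mark the motifs that were more frequent at the members than at lower-ranked intronic entries (the DREF element TATCGATA, the GAGA motif GAGAG and its longer form GAGAGAGA, the CA repeat CACACA, and the E-boxes with the form CAGCTG or the form CACGTG, all on both strands). The Asator, org-1, zf30C and msn windows held none of these motifs, and the CG42709 and CG7102 windows held TATCGATA.
Asator chr4:486562-486762: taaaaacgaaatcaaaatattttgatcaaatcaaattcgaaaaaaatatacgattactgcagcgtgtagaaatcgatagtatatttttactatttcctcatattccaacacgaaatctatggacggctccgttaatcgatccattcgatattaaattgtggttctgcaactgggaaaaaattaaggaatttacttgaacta
org-1 chrX:8452286-8452486: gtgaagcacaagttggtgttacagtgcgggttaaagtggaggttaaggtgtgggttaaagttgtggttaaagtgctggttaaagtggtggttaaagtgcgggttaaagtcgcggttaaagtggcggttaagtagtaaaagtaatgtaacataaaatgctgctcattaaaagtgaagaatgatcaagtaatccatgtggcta
zf30C chr2L:9759015-9759215: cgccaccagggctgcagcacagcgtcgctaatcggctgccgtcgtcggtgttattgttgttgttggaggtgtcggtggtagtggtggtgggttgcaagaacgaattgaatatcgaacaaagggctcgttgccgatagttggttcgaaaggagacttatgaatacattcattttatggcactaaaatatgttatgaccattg
CG42709 chr3L:12794657-12794796: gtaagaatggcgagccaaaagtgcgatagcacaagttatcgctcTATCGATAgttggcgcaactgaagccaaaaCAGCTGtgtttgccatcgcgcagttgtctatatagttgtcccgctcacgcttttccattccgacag
CG7102 chr2L:7886110-7886262: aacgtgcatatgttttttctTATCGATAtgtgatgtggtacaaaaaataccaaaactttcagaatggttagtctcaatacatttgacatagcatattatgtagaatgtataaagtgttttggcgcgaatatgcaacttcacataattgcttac
msn chr3L:2579913-2580113: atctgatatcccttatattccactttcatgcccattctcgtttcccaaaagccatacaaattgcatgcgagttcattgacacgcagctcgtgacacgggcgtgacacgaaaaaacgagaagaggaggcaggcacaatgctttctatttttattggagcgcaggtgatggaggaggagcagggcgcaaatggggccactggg

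The next windows belong to a strong member with GA repeats and to the strongest with CA repeats. The Bacc window carries GAGAG and its longer repeat, and the woc window TATCGATA and CA repeats.
Bacc chr2L:2755335-2755535: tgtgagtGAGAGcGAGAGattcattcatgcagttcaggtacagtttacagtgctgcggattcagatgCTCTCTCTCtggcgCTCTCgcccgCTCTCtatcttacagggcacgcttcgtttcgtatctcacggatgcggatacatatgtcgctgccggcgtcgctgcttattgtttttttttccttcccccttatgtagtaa
woc chr3R:27263452-27263611: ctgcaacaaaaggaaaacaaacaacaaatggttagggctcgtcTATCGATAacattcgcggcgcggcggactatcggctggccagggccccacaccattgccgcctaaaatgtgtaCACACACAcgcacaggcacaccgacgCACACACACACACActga

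The highest signals of the class stood at Asator, which encodes a tau-tubulin kinase homologue, on chromosome 4. Its signal was 476 in the paired entry, with 291 in replicate 1 and 148 in replicate 2. A member in org-1, a T-box transcription factor gene, had 343 in the paired entry, 194 in replicate 1 and 145 in replicate 2. The zinc finger gene zf30C followed at 305, with 189 in replicate 1 and 105 in replicate 2. The signal is the authors' peak enrichment value, whose scale is not stated. In all 3 of these members replicate 1 was the higher.

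The remaining hosts of the 15 strongest members had signals from 186 to 273. They were CG42709, CG7102, msn (a kinase of the JNK pathway), Tudor-SN (a tudor-domain nuclease), kirre (an adhesion protein of myoblast fusion), COX7AL2 with 2 members, for (a cGMP-dependent kinase), Adf1 (a transcription factor), Gnpat (an enzyme of ether lipid synthesis), woc (a zinc finger protein) and Mef2 (the muscle transcription factor). TATCGATA lay within 100 bp of 6 of these 15 summits and GAGAG within 100 bp of 1, the Mef2 summit. The median signal of all 645 members was 59.0, with quartiles of 48.4 and 74.2 and a range of 2.04 to 476.

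Signals of the paired peaks had a median of 33.6 in replicate 1 (23.7 to 291) and 28.8 in replicate 2 (21.5 to 148). Replicate 1 was the higher in 467 of 645 members. This is not particular to introns. Replicate 1 also had the higher median at promoter (62.0, against 42.4), intergenic (36.3, against 29.6) and exonic entries (30.1, against 26.5) at the score limit. Across members the signals of the 2 replicates gave a Pearson's r of 0.65 on the log2 scale and a Spearman's rho of 0.36, a description over sites that share their libraries and the score limit. The summits of the paired peaks lay a median of 58 bp apart.

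**Figure D1:**
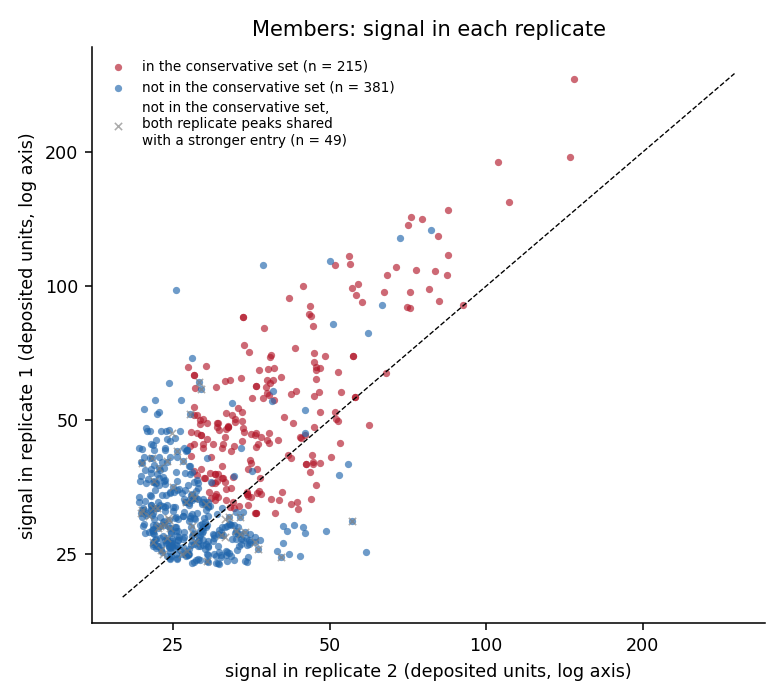
Signal of each of the 645 members in replicate 1 (vertical, log axis) against replicate 2 (horizontal, log axis), in the authors' units, with the dashed line at equality. The 215 members of the conservative set are red and fill the upper range, and most points lie above the line, where replicate 1 is the higher.

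A second set of files holds the authors' thresholded peaks, and 215 of the 645 members (33.3%, 95% Wilson interval 29.8 to 37.1%) were in the conservative one of these. The same share was 14.9% of exonic, 39.6% of intergenic and 72.7% of promoter entries at the score limit. In the other thresholded sets, 167 members (25.9%) overlapped a peak of the pooled set. Peaks of replicate 1's own set overlapped 108 (16.7%) and those of replicate 2's own set 69 (10.7%). No peak of either replicate's own set overlapped 517 of the 645. These overlaps were counted for members only, so they cannot be read as particular to introns. Of 241 members at the stricter score of 830, 26 were missing from the conservative set. Over entries of all classes at that score, 127 of 3719 were missing, so members were missing more often. None of the 26 overlapped a peak of any other thresholded set. They included both COX7AL2 members (signals of 206 and 202), the Kdm2 member (178), 3 members in tara and 3 in Bacc. Their part in the results was not tested, and they stayed among the members.

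Of the 645 members, 62 (9.61%), 3 of them among the 26 above, shared both of their replicate peaks with a stronger entry of the list. These had a median signal of 12.9, against 60.8 in the other 583, and their summits lay a median of 195 bp from the replicate 1 summit, against 25 bp in the other 583. Of the 26 members with a signal under 10, 25 were of this kind. For 51 of the 62 the stronger entry was itself intronic, so these members share a peak with a neighbour and are not independent sites. Listed motifs whose calls changed without these members are named beside the results, and for arms the number that passed is given.

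Members just inside the score limit included those in CG31678, with a score of 540, and CG32264, with a score of 542. The intronic entries just outside it had scores of 539 (CG32486), 539 (luna) and 538 (grh). The replicate signals of these members were 24.4 and 24.7 in CG31678 and 24.9 and 23.9 in CG32264, and those of the entries outside ran from 21.8 to 28.9.

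Members stood close to transcript starts and in first introns. The median distance to the nearest start of any gene was 1805 bp (quartiles 953 and 4168 bp), and 342 of 645 members (53.0%) lay within 2 kb of one, against 24.8% of the 32545 lower-ranked intronic entries (odds ratio 3.43 with a 95% interval of 2.93 to 4.01, adjusted p = 3.32e-51 by Fisher's exact test). Lower-ranked entries are those below the limit, placed by the same position rule and more than 1000 bp from any entry at or above it. The distance rule kept 32545 of 33948 such entries. It counts promoter entries too, so it thins the comparison near starts. The nearest start belonged to the host gene in 472 members (73.2%), where the host is the shortest protein-coding gene that contains the summit. It belonged to another gene in the rest.

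Member density was highest in the bin nearest to starts. It was 41.5 members per Mb of eligible sequence at 501 to 1000 bp (exact Poisson interval 35.6 to 48.0), 23.7 at 1001 to 2000 bp, 13.1 at 2001 to 5000 bp, 7.99 at 5001 to 10000 bp, 4.73 at 10001 to 20000 bp and 0.766 beyond (0.308 to 1.58). Lower-ranked entries had 651, 762, 718, 642, 601 and 347 per Mb over the same bins, so their highest and lowest bins differed less. The distance rule that defines them thins the bins nearest to starts. Only 7 members lay over 20 kb from any start. The strongest of them, in CG43759, had a signal of 113, and 2 of the 7 lay in bab2, a BTB transcription factor gene of limb and gonad development. The bab2 summits were 223 bp apart, and 1 of these members shares both replicate peaks with a stronger entry, so they are not independent sites.

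**Figure D2:**
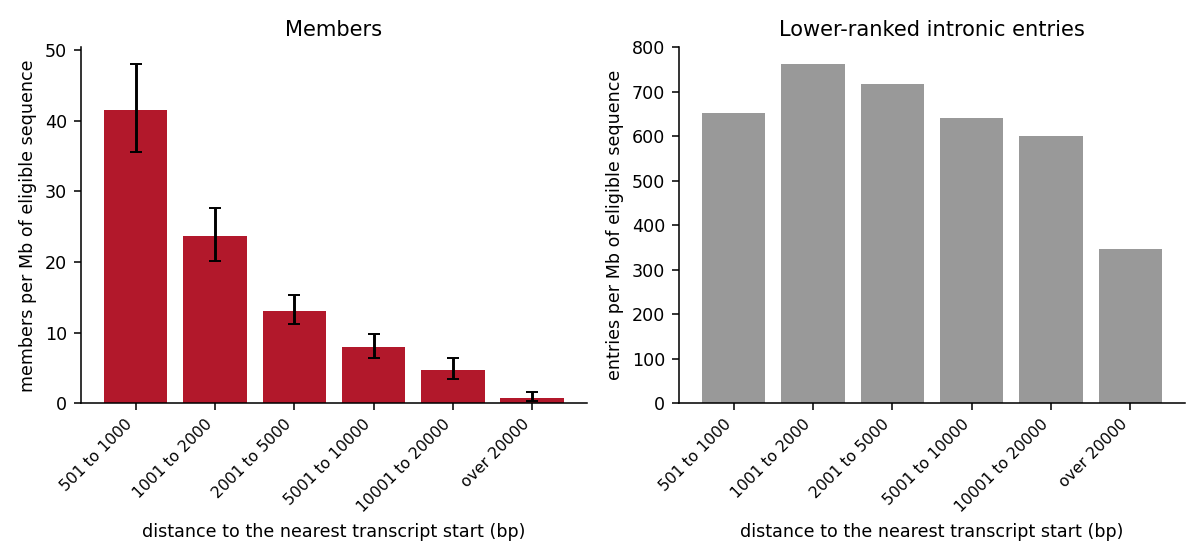
Members (left, with exact Poisson intervals) and lower-ranked intronic entries (right) per Mb of eligible intronic sequence, by distance of the summit to the nearest transcript start in bp. Member density is lower in each farther bin, with 41.5 per Mb at 501 to 1000 bp and 0.766 per Mb beyond 20000 bp.

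A first intron held 449 of 645 member summits (69.6%, Wilson interval 66.0 to 73.0%), against 42.0% of the eligible base pairs (exact binomial test, p = 1.88e-45) and 46.4% of lower-ranked entries (odds ratio 2.65, 2.24 to 3.14; adjusted p = 1.22e-31, Fisher's exact test). Introns over 10 kb held 37.7% of members, against 52.2% of lower-ranked entries (odds ratio 0.55, exact test, adjusted p = 3.54e-13). GC content above the lower-ranked median was found in 65.4% of members, against 48.2% (odds ratio 2.04, exact test, adjusted p = 5.84e-18). The median GC content was 47.3% in members, 44.3% in lower-ranked entries and 40.3% in all eligible windows. Windows more than 50% soft-masked made up 2.02% of members, against 2.52% (exact test, adjusted p = 0.524). Of the 6 position and composition features compared, this was the single one that did not pass.

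Arms differed in member density. Arm 3L held 157 members (24.3%), against 19.5% of eligible base pairs (exact binomial test, adjusted p = 0.00831), and 2R held 140 (21.7%), against 17.5% (adjusted p = 0.0105). Chromosome X held 89 (13.8%), against 18.2% (adjusted p = 0.00831) and against 23.5% of lower-ranked entries (Fisher's exact test, adjusted p = 2.2e-09). Of lower-ranked entries, 16.9% lay on 3L and 19.3% on 2R. Chromosome Y held 0 members and 0.191% of lower-ranked entries (62), against 1.82% of eligible base pairs. Chromosome 4 held 1, the Asator member, and 0.0830% of lower-ranked entries (27), against 1.06% of eligible base pairs. Both passed against eligible base pairs (exact binomial test, adjusted p = 8.19e-05 and 0.0257), but lower-ranked entries were scarce there too. In all, 5 of the 7 chromosomes or arms passed, and 4 without the shared-peak members. In the conservative set no arm passed (exact binomial test), with 3 at an unadjusted p under 0.05.

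GA-repeat sequence was more frequent at the members. GAGAG lay within 100 bp of 312 of 645 summits (48.4%), against 23.7% of lower-ranked intronic entries (odds ratio 3.02 with a 95% interval of 2.58 to 3.53, adjusted p = 3.58e-40 by Fisher's exact test) and 21.4% of all eligible windows. Eligible windows reweighted to the GC content of the members held it in 25.7%. The longer GAGAGAGA was in 89 members (13.8%), against 1.76% (odds ratio 8.95, 7.05 to 11.4, exact test, adjusted p = 1.72e-46). It contains GAGAG, so the pair are not separate results. Members with at least 2 overlapping or separate GAGAG matches numbered 207, and the most in one window was 15. A high GAGAG share outside promoters was already known for these data, so its size here is no independent support.

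By distance to a start the GAGAG share was 50.8% of members at 501 to 1000 bp, 49.7% at 1001 to 2000 bp, 43.8% at 2001 to 5000 bp, 50.6% at 5001 to 10000 bp, 50% at 10001 to 20000 bp and 28.6% of the 7 members beyond, against 23.3% to 24.7% of lower-ranked entries in these bins. It was 26.4% in the 129 members of lowest signal, which hold 60 of the 62 shared-peak members. In the next 3 groups of 129 it was 46.5%, 48.1% and 62.0%, and in the 129 strongest it was 58.9%. Within the conservative members it was 60.5%, against 42.3% in the others. The GAGA match was more frequent around summits than farther away. Bins of 20 bp within 50 bp of the summit held one in a mean of 9.77% of members, against 2.99% of lower-ranked entries. Bins 300 bp or more away held one in 3.86%, against 2.64%. The rise was broad, with no peak at the summit itself: 11.6% of members in the highest bin, at -70 bp, 9.46% at -10 bp and 8.68% at 110 bp.

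**Figure D3:**
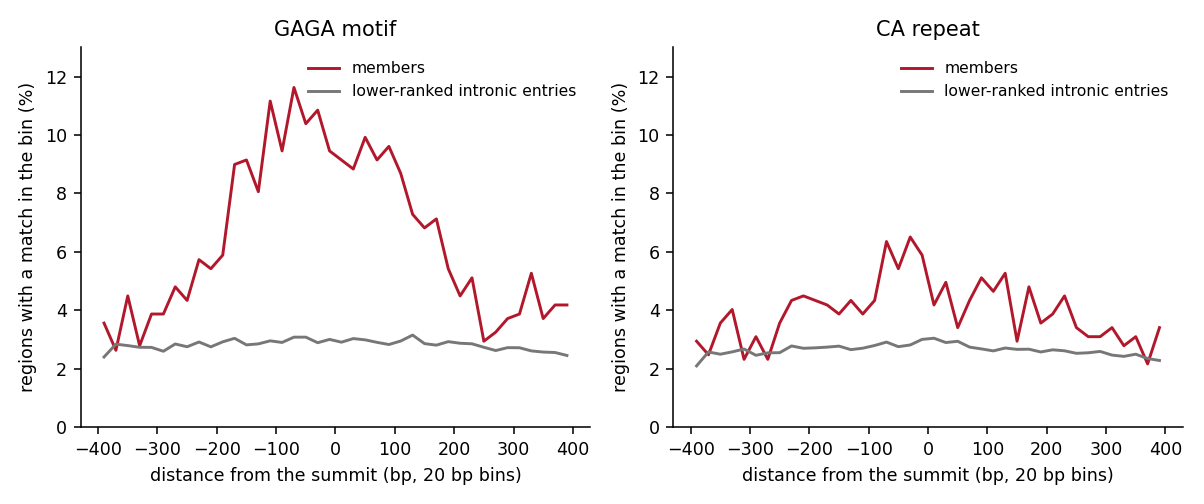
Share of members (red) and lower-ranked intronic entries (grey) with a match to GAGAG (left) or CACACA (right) on either strand in each 20 bp bin, by distance from the summit in bp. GAGAG is raised over a broad range around the summit and reaches 11.6% of members in the bin at -70 bp, while lower-ranked entries stay near 2.99%.

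Of the 24 listed motifs, 6 (25%) were more frequent and 3 (12.5%) less frequent at members than at lower-ranked intronic entries. CACACA, a CA repeat, was at 34.1% of members, against 20.9% (odds ratio 1.96 with a 95% interval of 1.66 to 2.31, adjusted p = 1.33e-13, exact test). TATCGATA was at 16 members (2.48%), against 0.332% (odds ratio 7.64, 4.49 to 12.99, exact test, adjusted p = 1.61e-08). The E-box forms CACGTG (5.12%, against 2.80%, odds ratio 1.87, exact test, adjusted p = 0.00654) and CAGCTG (12.9%, against 9.37%, odds ratio 1.43, adjusted p = 0.0111) also passed. CAGCTG lost its call in the conservative set (exact test, adjusted p = 0.578), without replicate 2, over 1000 bp from starts and over bins of GC content. CACGTG lost its call without replicate 1 (exact test, adjusted p = 0.212) and against flanking windows (adjusted p = 0.0809).

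The homeodomain sequences were less frequent at members. TAATTG was at 73 members (11.3%), against 18.6% of lower-ranked entries (odds ratio 0.56, 0.44 to 0.71; adjusted p = 3.73e-06, Fisher's exact test), and TAATTA at 54 (8.37%), against 12.03% (odds ratio 0.67, adjusted p = 0.0111). Over 5 bins of GC content TAATTG kept its call (odds ratio 0.62) and TAATTA lost it (odds ratio 0.79), and TAATTA also lost it with either replicate left out. In the conservative members neither passed (exact test, adjusted p = 0.0659 for TAATTG and 0.572 for TAATTA). The paired-class arrangement, TAAT and ATTA 3 bases apart, was at 3 members (0.465%), against 1.42% (exact test, adjusted p = 0.0799), and it passed as less frequent without the shared-peak members (odds ratio 0.24, adjusted p = 0.0478). GCCAT, the core of the Pleiohomeotic site, was at 33.8%, against 39.7% (odds ratio 0.78, exact test, adjusted p = 0.00891), and lost its call in the conservative set (adjusted p = 0.184), without replicate 1 (0.169), over 1000 bp from starts (0.398), against flanking windows (0.621) and in 50 bp windows (0.0727).

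The other 15 listed motifs did not pass, with odds ratios from 0.33 for the paired-class pair to 1.95 for CAGGTAG, the Zelda site (exact test, adjusted p = 0.0696). The rest were the sites of the Bicoid class (4.19%, against 6.13%), M1BP (0.465%, against 0.341%), E-boxes in general (70.4%, against 67.8%), Snail (8.68%, against 7.605%), GATA factors (7.597%, against 8.10%), Sox factors (19.4%, against 19.4%), nuclear receptors (4.65%, against 5.06%), Su(H) (2.17%, against 3.13%), AP-1 (3.26%, against 2.06%), Scalloped (9.30%, against 10.7%), Ets factors (6.05%, against 5.59%), POU factors (2.64%, against 4.13%) and Su(Hw) (8.68%, against 7.87%). Some of these passed under an alternative. The AP-1 site passed in the conservative set (odds ratio 2.82, exact test, adjusted p = 0.00926), without replicate 1 (odds ratio 2.55), with 1 member per host (2.03) and in 200 bp windows (1.51). The Zelda site passed over 1000 bp from starts (odds ratio 2.60, exact test, adjusted p = 0.0140). The Bicoid-class site passed as less frequent with either replicate left out (odds ratios 0.38 and 0.42) and over bins of distance (0.63), and the POU site in the conservative set (0.22) and in windows of 200 bp (0.55). A missed threshold does not show that these were equally frequent.

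**Figure D4:**
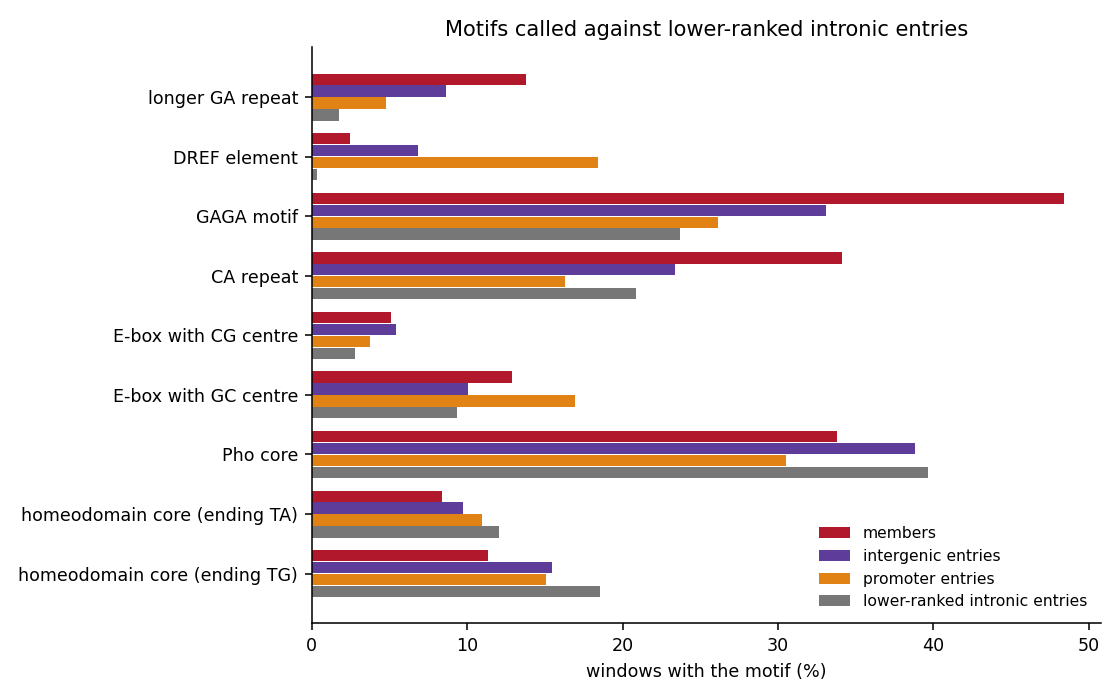
Share of windows of 201 bp with each motif called against lower-ranked intronic entries, for members, intergenic entries, promoter entries and lower-ranked intronic entries. GAGAG is highest at members (48.4%), and the DREF element is highest at promoter entries (18.4%).

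Against the 4390 promoter entries, 7 motifs (29.2%) were more and 5 (20.8%) less frequent. GAGAG was at 48.4% of members, against 26.1% of promoter entries (odds ratio 2.65; adjusted p = 8.85e-28, Fisher's exact test), and CACACA at 34.1%, against 16.3%. TATCGATA was at 2.48%, against 18.4% (odds ratio 0.11, exact test, adjusted p = 9.18e-32), and GGTCACAC, the motif bound by M1BP, at 0.465%, against 7.47% (odds ratio 0.058, adjusted p = 1.26e-15). GATAAG, of the GATA factors, was at 7.597%, against 13.4%. CAGCTG was less frequent at members than at promoter entries (odds ratio 0.72, exact test, adjusted p = 0.0234). The Scalloped site was more frequent (odds ratio 1.43, exact test, adjusted p = 0.0445). Without the shared-peak members TAATTA passed as less frequent (exact test, adjusted p = 0.0186), and CAGCTG (adjusted p = 0.0700) and the Scalloped site (adjusted p = 0.0836) lost their calls.

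Against the 278 intergenic entries, 2 motifs (8.33%) were more and 1 (4.17%) less frequent. GAGAG was at 48.4% of members, against 33.1% (odds ratio 1.89; adjusted p = 0.000455, Fisher's exact test), CACACA at 34.1%, against 23.4% (adjusted p = 0.0134), and TATCGATA at 2.48%, against 6.83% (odds ratio 0.35, adjusted p = 0.0193). In windows of 50 bp to each side GAGAG and CACACA did not pass (exact test, adjusted p = 0.0873 for each), nor did TATCGATA (adjusted p = 0.108). Without the shared-peak members TATCGATA lost its call (exact test, adjusted p = 0.0689), and CACACA lost it over 1000 bp from starts (adjusted p = 0.0896).

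The 16 TATCGATA members had high signals. Their signals ran from 52.6 in Src64B to 273 in CG42709, with a median of 108, against 58.4 in the 629 members without it. In the replicates their medians were 66.0 and 45.7, against 33.3 and 28.6 without the motif. The conservative set held 12 of the 16 (75%), against 32.3% of the other members. The 312 GAGAG members had a median signal of 63.4, against 54.1 in the 333 without it.

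A search over all 2080 6-mers called 193 (9.28%) more and 219 (10.5%) less frequent at members than at lower-ranked entries. The highest odds ratios were those of AGAGAG (33.8%, against 8.78%, odds ratio 5.31; adjusted p = 6.75e-65, Fisher's exact test), AGAGCG (odds ratio 4.800), GAGAGA (odds ratio 4.63), GAGAGC (odds ratio 4.35) and GAGCGA (odds ratio 3.91). Next came CCTCTC (20.6% of members), GCGAGA (21.4% of members), CTCTCC (21.1% of members), CGCGCG (4.50% of members) and AAGAGA (29.3% of members), with odds ratios between 3.38 and 3.63. Of the 47 6-mers that hold GAGA or its complement TCTC, 25 were called higher. The lowest were CTTAAG (0.620%, against 3.91%, odds ratio 0.15, exact test, adjusted p = 1.15e-05), AGGACT (odds ratio 0.22), GGATCC (odds ratio 0.25), CAGGAC (odds ratio 0.28), AGGATA (odds ratio 0.30) and ATCCTG (odds ratio 0.31). ATCCCG (odds ratio 0.33), AAGGAT (odds ratio 0.34), CCAGGA (odds ratio 0.34) and CGGGTA (odds ratio 0.36) came next. Calls were lost with either replicate left out for CTTAAG (odds ratio 0.61 without replicate 1), GGATCC (odds ratio 0.32) and CGGGTA (odds ratio 0.92). Without replicate 1 they were also lost for AGGATA (odds ratio 0.32), ATCCCG (odds ratio 0.87) and ATCCTG (odds ratio 0.46). Against flanking windows calls were lost for CCAGGA (odds ratio 0.72), CAGGAC (0.61), ATCCTG (0.59), ATCCCG (0.42), CGGGTA (0.46) and GGATCC (0.46). In windows of 50 bp they were lost for CCAGGA (odds ratio 0.49), CTTAAG (0.31), CGGGTA (0.55) and GGATCC (0.27). In the conservative set they were lost for CCAGGA (odds ratio 0.44), ATCCCG (0.22), CGGGTA (0.30) and GGATCC (0.19). Overlapping 6-mers share their windows and are not separate results.

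The 645 members fell in 441 host genes, 4.92% of the 8958 protein-coding genes with eligible sequence, and 116 hosts with 2 or more held 320 members (49.6%). Neighbouring summits lay within 1000 bp of each other 78 times, so counts per gene hold some shared regions. EcR, the ecdysone receptor, held the most, with signals of 176, 66.6, 66.1, 58.4, 52.1, 47.0 and 6.57. The lowest of these shares both replicate peaks with the one at 47.0. The strongest EcR member had 89.1 in replicate 1 and 71.5 in replicate 2 and stood 1244 bp from the start of a transfer RNA gene.

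The hosts with 6 members were sbb, klar, Eip74EF, simj, Mob2 and skd. In sbb, a transcriptional co-repressor gene, the signals were 185, 91.4, 60.8, 56.5, 54.8 and 52.3. In Eip74EF, an Ets factor gene induced by ecdysone, they were 123, 77.0, 65.3, 55.9, 49.2 and 14.9, and 5 of the 6 windows held GAGAG. The genes klar (nuclear positioning), simj (a subunit of the Mi-2 remodeller complex), Mob2 (a kinase co-activator) and skd (a Mediator subunit) had strongest signals of 128, 83.7, 77.0 and 73.2. Among hosts with 5, tara, whose protein acts with Trithorax-group genes, had 160, 85.9, 80.0, 65.3 and 53.4, and the remodeller gene kis had 136, 97.4, 65.2, 64.7 and 49.1. The kinase gene Tlk had 104, 96.1, 54.3, 43.1 and 21.7. No tara member was in the conservative set.

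**Figure D5:**
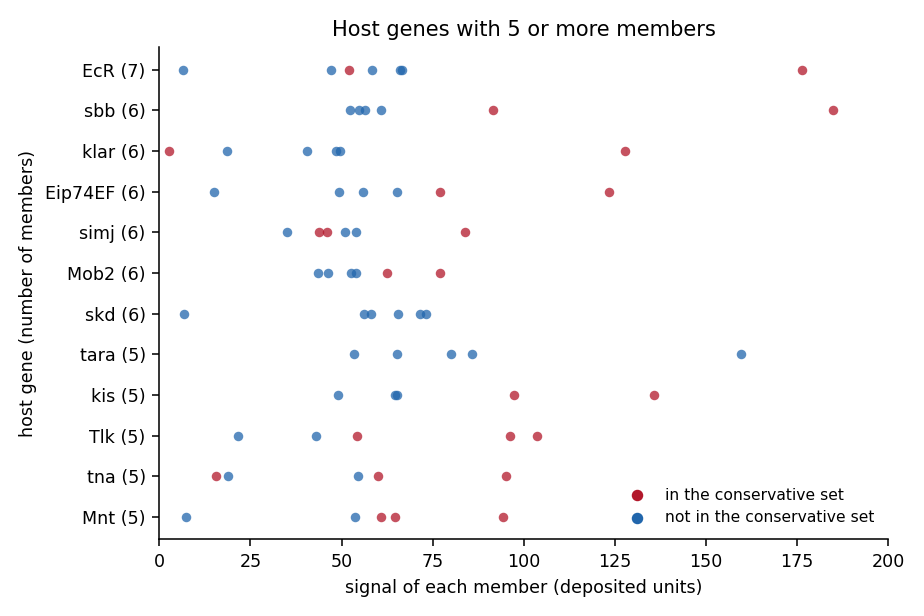
Signal of every member in the 12 host genes that held 5 or more, red for members of the conservative set and blue for the others. The strongest member stands above the next one at 176, against 66.6, in EcR and at 185, against 91.4, in sbb.

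A promoter entry at the score limit stood at 301 of the 441 host genes (68.3%, Wilson interval 63.8 to 72.4%), against 1303 of the 3430 genes that held lower-ranked intronic entries alone (38.0%, 36.4 to 39.6%). This is a description with no test, and the members' closeness to starts bears on it. The choice of comparison bears on it too. Lower-ranked entries within 1000 bp of a promoter entry were left out, so genes with such an entry were less likely to be counted. The nearest promoter entry was a median of 4216 bp from a member.

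The gene lists were read by the share of genes that hosted a member and by members per Mb of eligible intron, beside 4.92% of genes and 12.3 per Mb (11.3 to 13.3) over all protein-coding genes. The 38 chromatin remodeller, Polycomb and Trithorax genes with eligible sequence included 9 hosts with 24 members, or 92.6 per Mb (exact Poisson interval 59.3 to 138). Of these members simj held 6 and kis and tna 5 each, and osa (a Brahma complex subunit, 134), Acf, jing, trx, Psc and Asx held the rest. Lower-ranked entries in this list stood at 795 per Mb, against 619 over all genes. The 22 nuclear receptor and ecdysone response genes included 7 hosts with 18 members (28.0 per Mb, 16.6 to 44.2): EcR, Eip74EF, Eip63E (103), Hr39 (96.0), Eip75B, Hr4 and ftz-f1.

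Signalling genes were hosts too. The EGFR, FGF and Ras list had 10 hosts of 29 (28.6 per Mb, 15.2 to 48.9), led by ru, a rhomboid protease gene (173), then spi and vn, which encode EGFR ligands, and Raf, a kinase with 4 members. The Wnt, Hedgehog and BMP list had 8 of 37 (27.1 per Mb, 15.8 to 43.5), led by the receptor gene fz2 (114), the inhibitor gene Dad (83.2), shn and Mad. The Notch list had 3 of 18 (24.9 per Mb, 9.14 to 54.2): mam, a co-activator with 4 members and a strongest signal of 172, numb and gro. The ligand gene Delta was listed under a symbol that was not matched, so it is outside this count, and it held 1 member (104). The BTB list had 8 of 17 (16.4 per Mb, 7.87 to 30.2), including mod(mdg4) (121), bab1 (108), Trl itself (96.8) and psq (90.4).

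Homeobox genes held 8 members in 6 of 75 genes (7.36 per Mb, 3.18 to 14.5), among them Ubx (119), pb (76.2), Rx (63.0) and abd-A (55.4). The hbn gene held no member, and its 7 lower-ranked entries had a strongest signal of 51.8 with a score of 418. Axon guidance and adhesion genes had 7 hosts of 53 (4.15 per Mb, 1.99 to 7.63), led by kirre (209), Dscam1 (101), unc-5 and hbs. RNA-binding protein genes had 7 of 35 (4.74 per Mb, 1.90 to 9.76), led by Imp (106), mbl, Rbp9 and bru1.

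Neural fate and temporal factor genes had 4 hosts of 23 (grh, brat, elav and pros; 11.9 per Mb, 3.87 to 27.8). The rates were 22.0 per Mb (10.1 to 41.8) in cytoskeleton and polarity genes, with 7 hosts of 31 led by chic (135), RhoGEF2, Msp300 and scrib, 6.42 per Mb (0.778 to 23.2) in muscle and mesoderm regulators, with 2 of 26, Mef2 (186) and lbl, and 20.7 per Mb (4.27 to 60.6) in segmentation genes, with 1 of 22, cnc with 3 members. None of the 51 listed synaptic and ion channel genes held a member in 1.37 Mb, where a count of 0 allows up to 2.70 per Mb, although 801 lower-ranked entries stood there. Such genes outside the list did host members, among them the SNARE gene Snap25 (52.2) and the potassium channel gene SLO2 (60.5). These rates describe the lists, and nothing particular to a list is drawn from them.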

How the data were processed

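The authors' peak files hold positions on dm6 (Release 6), per the labels. Per the deposited notes, they derive from filtered alignments and a control file. The aligner and the peak caller are not given in those sources. The deposited score follows the IDR and reaches 1000, the deposited signal is an enrichment value of unstated scale, and the deposited −log10 of the global IDR stands beside it. Columns of the ranked list carry no header. Peaks of the first pair column matched replicate 1's own ranked list exactly for 634 of 645 members, and those of the second matched replicate 2's for 628, with 0 matches to the other replicate.

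Positions were classed with Ensembl models (release 115), and bases were read from RefSeq's copy of Release 6. Windows ran 100 bp to each side of a summit, and motifs on either strand counted. Fisher's exact tests were 2-sided, with p-values adjusted by Benjamini and Hochberg's method (threshold 0.05) over 24 motifs, 2080 6-mers or 6 features, and odds ratios have 95% Woolf intervals. Nearby regions are not independent, so p-values are approximate. The motif and 6-mer tests were also run on lower-ranked windows split at random, with GAGAG and GAGAGAGA set as present in some for the motif tests. The other comparisons were not checked in this way. Python 3.11.15 and SciPy 1.17.1 were used.

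Members, motifs and 14 gene lists were chosen with earlier results of these data known. Named hosts are those of the 15 strongest members, the 10 with most members (ties by signal) and up to 4 per list; Kdm2, Bacc, CG43759, bab2, Src64B, Delta, Snap25, SLO2 and further list hosts were chosen after their values were seen. List symbols that were not matched numbered 2, that of Delta included. One member near the score limit and one window sequence are not reported here.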

Additional observations from a re-analysis of the deposited data

How the results depend on the processing

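The number of members was 241 at the conservative score limit, 215 in the conservative set and 253 to 388 with either replicate left out. With a replicate left out, members and lower-ranked entries were chosen anew from the other replicate's own ranked list, by the same score and position rules. RefSeq models gave the same 645 members, and changed the class of 3 of 5814 entries; both annotations share a source, so this is no independent check. The motif GAGAG and its longer form, the CA repeat and the DREF element kept their calls against lower-ranked entries under every alternative run, including 2 chosen after seeing the data (bins of distance to a start, and leaving out the 62 shared-peak members). The first-intron share ran from 64.4% over 1000 bp from starts to 75.3% in the conservative set, past the threshold in each.

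Fewer arms passed in the conservative set (0, exact binomial test, 3 at an unadjusted p under 0.05), with either replicate left out (1 each) and with the strongest member per host (1). Motifs called lower against lower-ranked entries fell to 1 in the conservative set, over 1000 bp from starts and in windows of 50 bp. Against intergenic entries, motifs called higher numbered 1 over 1000 bp, 1 over GC bins and 0 in windows of 50 bp (3 unadjusted). Those called lower numbered 0 over GC bins, in windows of 50 bp and without shared-peak members (Fisher's or Cochran-Mantel-Haenszel test, 2 unadjusted each). Against promoters, 4 were higher in the conservative set, and 3 and 8 were lower in windows of 50 and 200 bp. The 6-mers called higher numbered 118 in the conservative set, 128 in windows of 50 bp and 90 to 146 with a replicate left out. Those called lower numbered 62, 62 and 36 to 91, with 110 over 1000 bp and 124 with 1 member per host. Listed host genes numbered 34 in the conservative set. The cause of these changes was not tested.

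Depth is unknown, there are 2 replicates and no untagged group, and the replicates' control was not used here. No paired analysis was possible because there is 1 group.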
